A study of Mus musculus with 19 samples.

Results

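The ribosome is built from ribosomal RNA and a set of small, mostly basic proteins, each encoded by its own gene. The proteins of the small subunit (40S) carry symbols starting with Rps and help to bind and decode the mRNA, and those of the large subunit (60S) start with Rpl and surround the site where peptide bonds are made. Their mRNAs are among the most abundant in most cells, many start with a run of pyrimidines through which growth signals control translation, and their amounts are usually held in step with one another. The genes were chosen by name: an entry counted if its gene ID had a mouse symbol starting with Rpl or Rps and a digit, or was Rplp0, Rplp1, Rplp2 or Rpsa, was no Rps6 kinase or named pseudogene, and reached 1 FPKM in at least 4 of 19 libraries. FPKM is a fragment count divided by gene length and sequencing depth. Of 19287 entries 89 had such a name and 85 passed the level rule. They comprised 31 proteins of the small subunit, 46 of the large subunit, 6 paralogs or retrogene copies (Rpl3l, Rpl22l1, Rpl36al, Rpl37rt, Rps23rg1 and Rps27l) and 2 proteins that are no ribosomal subunits in themselves (Rpl7l1 and Rps19bp1). The level rule left out Rpl10l (at most 0.07 FPKM), Rpl32l (0.58), Rpl39l (0.6) and Rps27rt, which was listed at 0 in 17 libraries and reached 18.07 FPKM in the other 2. Rpl37rt and Rps23rg1 entered with 8 libraries each at or above 1 FPKM and Rpl3l with 17.

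The kidneys came from male mice of the inbred strain C57BL/6. The groups were sham-operated kidneys (sham, n = 5), kidneys taken 5 days after ischemia-reperfusion, in which the blood flow is stopped and restored (IR, n = 5), and the same injury after 4 weeks of oral gavage with a Lactobacillus. The last were labelled IRLacz (L. casei Zhang, n = 4) and IRLac (n = 5), which was taken as L. acidophilus by elimination. No gavage is given for sham or IR, the day of sampling is not stated separately for sham, and the labels do not say that each library is a mouse of its own, so p-values measure the spread between these libraries. Correlations between libraries of a group on the log2(FPKM + 1) scale were 0.9901 to 0.9929 in sham, 0.9816 to 0.9892 in IR, 0.9658 to 0.9882 in IRLac and 0.9604 to 0.988 in IRLacz. IRLacz replicate 1 stood apart among the injured kidneys, and the counts and medians of that group are given with and without it.

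Most genes of the ribosome share long stretches with processed pseudogenes, so reads can be split between copies. Of 85 genes 83 had a coding sequence in the GENCODE mouse release 21, and each was cut into windows of 50 bases that were looked up in the transcripts of all other genes. In 29 of the 77 subunit proteins every window was also found elsewhere, and in 10 fewer than 50% were. Among those with few were the small subunit gene Rps3 (8.1% shared) and the large subunit gene Rpl8 (8.7%). These shares describe the sequence, and how the authors assigned shared reads is not given in the sources used here. Rps6 is one gene whose copy has an entry of its own. It encodes the small subunit protein that S6 kinase phosphorylates, and its 5 sham libraries held 17.61 to 24.09 FPKM (21.24 ± 2.33, SD, n = 5). The pseudogene entry Rps6-ps4, in whose transcript all 698 of its windows were found, held 475.01 to 516.81 FPKM (488.6 ± 16.7, n = 5). Summed, the entries stood at 509.8 ± 15 FPKM, near the median of 465.2 FPKM over small subunit genes in sham. Whether reads of Rps6 were assigned to Rps6-ps4 was not tested.

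Levels in sham ranged widely between genes. The highest were those of Rpl41, the smallest protein of the large subunit (1443 ± 120 FPKM, n = 5), Rplp1, a protein of the acidic stalk that recruits elongation factors (1101 ± 59.6), Rps2 (1099 FPKM) and Rpl28 (1071 ± 53.9). Among subunit proteins the lowest was Rpl27 (7.608 ± 1.51), followed by Rpl10a (20.69 ± 3.56), Rps6, Rps15a (23.19) and Rpl10 (29.62 ± 18.4). Over all genes the median of the sham means was 412.7 FPKM, and 14 genes lay under 100 FPKM. All 5 of these lowest subunit genes shared at least 84.2% of their windows with other genes, but Rpl41 and Rpl28, among the highest, shared 100%. The median sham mean was 423.3 FPKM over the 29 subunit genes with every window shared. It was 589.8 FPKM over the 10 with fewer than 50% shared. A link between sharing and level was not tested. Most proteins of the ribosome are present once per particle and the acidic stalk proteins in more copies, but these levels are per entry of the table and cannot be read as levels of protein.

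**Figure D1:**
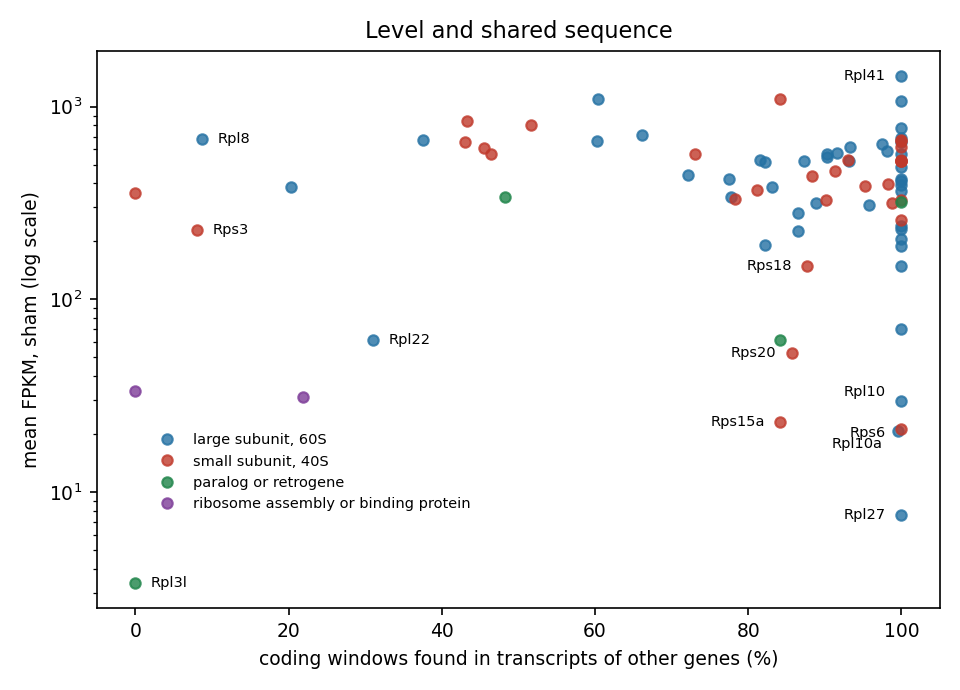
Mean FPKM in sham (vertical axis, log scale) against the share of each gene's 50-base coding windows found in transcripts of other genes (horizontal axis, percent), 1 point per gene, coloured by class. Rps3 and Rpl8 lie on the left, Rpl27, Rps6, Rpl10 and Rpl10a lie low on the right, and Rpl41 lies highest on the right.

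Injured and sham kidneys were compared to find the effect of the injury. Ribosomal protein genes rose almost throughout. In limma 81 of 85 were higher in IR at an adjusted p under 0.05, against 57.0% of all 13594 entries tested, and 2 were lower, against 18.6%. The median log2 difference was 0.69 over the 85 genes and 0.29 over all entries, with quartiles of -0.07 and 0.67. The 77 subunit proteins all had positive differences, from 0.36 (Rps25) to 1.53 (Rpl10a), and 76 of them rose, Rpl10 being the exception. In 77 of the 85 genes the lowest IR library lay above the highest sham library, which held for 48.6% of all entries. In the small subunit 31 of 31 genes rose with a median of 0.71, and in the large subunit 45 of 46 with a median of 0.68.

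Because most entries were higher in IR, the scaling of the libraries sets the size of this change. With median-ratio scaling, which moved the median of all entries from 0.29 to 0.0037, the median of the ribosomal protein genes was 0.35, with 65 higher (against 35.0% of all entries) and 3 lower (against 35.3%). The rise was also present where few reads can be shared. All 10 subunit genes with fewer than 50% of windows shared rose (median 0.62), and 28 of the 29 with every window shared rose (median 0.67). Rps3, which also acts in DNA repair, was at 226.59, 229.42, 245.79, 217.83 and 227.89 FPKM in sham and at 359.93, 377.93, 358.88, 323.39 and 338.78 FPKM in IR. The groups did not overlap, and the log2 difference was 0.61 (SE 0.08, limma adjusted p = 1.94e-06).

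The summed FPKM of the 85 genes gives the same picture per library. They made up 6.31% ± 0.168 (SD, n = 5) of all FPKM in sham, with libraries from 6.19% to 6.6%, and 10.2% ± 0.856 (n = 5) in IR, from 9.14% to 11.1%. In IRLac the share was 10.2% ± 0.56 (n = 5), from 9.22% to 10.7%. The IRLacz libraries held 7.65%, 9.14%, 9.93% and 10.8%, a mean of 9.38% ± 1.34 (n = 4), or 9.96% ± 0.83 (n = 3) without replicate 1. Every injured kidney thus lay above every sham kidney. The ratio of the small subunit sum to the large subunit sum was 0.663 to 0.672 in sham, 0.688 to 0.703 in IR, 0.68 to 0.704 in IRLac and 0.685 to 0.703 in IRLacz. The sham range lay below the ranges of all 3 injured groups, although the step is small. These sums are given as a description without a test.

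**Figure D2:**
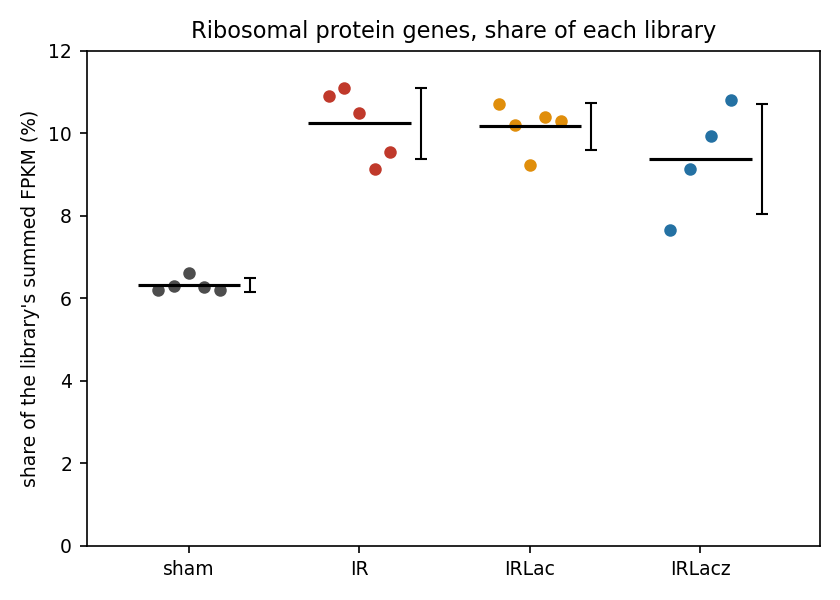
Share of each library's summed FPKM held by the 85 ribosomal protein genes (vertical axis, percent) in the 4 groups (horizontal axis). Points are libraries, lines are group means and bars 1 SD; sham lies between 6.19% and 6.6%, and the lowest injured kidney is IRLacz replicate 1 at 7.65%.

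Markers of cell types and of tubule injury also differed between IR and sham, where 57.0% of all entries were higher and 18.6% lower. Marker levels in bulk tissue do not separate cell numbers from expression per cell. All 14 macrophage markers were higher in IR (summed 115.1 to 154.2 FPKM in sham, 1497 to 2100 in IR), as were 8 of 8 markers of dividing cells (4.92 to 6.9 against 59.87 to 94.68 FPKM), 8 of 8 of fibroblasts (83 to 114.4 against 773.2 to 949.4) and 9 of 9 of injured tubule (644 to 746.4 against 9846 to 13620). All 11 proximal tubule markers were lower (summed 36830 to 41370 FPKM in sham, 6852 to 15170 in IR). Of 8 T and B cell markers 5 were tested and 4 rose, with sums of 2.26 to 4.76 FPKM in sham and 5.43 to 15.41 in IR. Of 6 markers of other nephron segments 4 were lower (1944 to 2853 FPKM in sham, 1178 to 2130 in IR). The 4 red blood cell markers tested were all lower, with sums of 222.6 to 1352 FPKM in sham and 52.94 to 222.1 in IR. Within sham these sums were uneven, at 1352 FPKM in replicate 3 and 1029 in replicate 5 against 222.6 to 297.9 in the other 3. No marker of these lists was at 0 throughout a group. In bulk tissue, more cells of a type with many ribosomes and more ribosomal protein mRNA per cell cannot be told apart, and the part of the cell makeup in the rise was not tested.

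The 5 largest differences were those of Rpl10a, Rps18, Rpl12, Rpl22l1 and Rps12. Rpl10a (gene ID 19896), a protein of the large subunit's L1 stalk, was at 19.78, 21.56, 16.77, 26.27 and 19.05 FPKM in sham and at 71.97, 75.65, 77.31, 44.51 and 44.35 FPKM in IR. The groups lay far apart, with 3 IR libraries above 70 FPKM and 2 near 44, and the log2 difference was 1.53 (SE 0.19, limma adjusted p = 9.13e-07). Rpl12 (269261), which lies at the base of the acidic stalk, was at 345.2, 362.05, 402.35, 357.59 and 368.46 FPKM in sham and at 910.82, 881.43, 878, 774.35 and 765.8 FPKM in IR. The log2 difference was 1.19 (SE 0.12, limma adjusted p = 1.03e-07). Every IR library lay above every sham library, with no value in between. Rps12, of the small subunit, rose from 620.9 ± 26.6 to 1238 ± 148 FPKM (log2 difference 0.99). Rps18 was more variable, at 149.8 ± 41.5 FPKM in sham and 356.6 ± 96.6 in IR, differing by 1.25 on the log2 scale (SE 0.47, limma adjusted p = 0.0228), and its call was lost without sham replicate 4 (adjusted p = 0.0606), without IR replicate 1 (0.0525) and with median-ratio scaling (0.0894). Rps18 shares 87.7% of its windows with 13 other genes, none of which has a row in the table.

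Members known for further roles rose with the rest. Rpl5 (70.53 ± 5.76 to 122.8 ± 7.55 FPKM) and Rpl11 (685.4 ± 18.1 to 1014 ± 119), which outside the ribosome inhibit Mdm2 and so stabilise p53, had log2 differences of 0.79 and 0.56. Rps19, mutated in Diamond-Blackfan anemia, went from 371 ± 12.4 to 637.8 ± 83 FPKM. The stalk genes Rplp0 (661.1 ± 41.1 to 1084 ± 86.9), Rplp1 (1101 ± 59.6 to 1862 ± 224) and Rplp2 (716.3 ± 47.3 to 1142 ± 102) had differences of 0.71, 0.75 and 0.67, close to one another. Rpsa, also known as the laminin receptor, rose from 315.3 ± 11.9 to 497.9 ± 60.6 FPKM, and Rps27a, which encodes a fusion of ubiquitin with a small subunit protein, from 257.9 ± 13.5 to 440.1 ± 43.6. Rpl13a, which takes part in interferon-induced silencing of inflammatory mRNAs, rose from 641.4 ± 31.5 to 1077 ± 117 FPKM. Rps6 itself rose from 21.24 ± 2.33 to 32.33 ± 3.99 FPKM (log2 difference 0.58), and Rps6-ps4 from 488.6 ± 16.7 to 800.5 ± 70.6 (0.71, limma adjusted p = 2.14e-07). Rpl10, which joins the large subunit late in its assembly, was at 13.86, 14.08, 50.79, 21.13 and 48.23 FPKM in sham and at 43.41, 53.12, 51.93, 41.9 and 47.77 FPKM in IR. Its sham libraries fell into a low and a high set, the latter being replicates 3 and 5, whose red blood cell markers were also high, and this set overlapped IR. In IR the same markers summed to 52.94 to 222.1 FPKM, below every sham library, with Rpl10 at 41.9 to 53.12 FPKM. The part of those markers in the level of Rpl10 was not tested, and the difference of 0.88 did not pass (limma adjusted p = 0.0588). It passed in 6 of 19 alternatives, among them without sham replicate 3 (adjusted p = 0.0206) and without sham replicate 5 (0.0238).

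**Figure D3:**
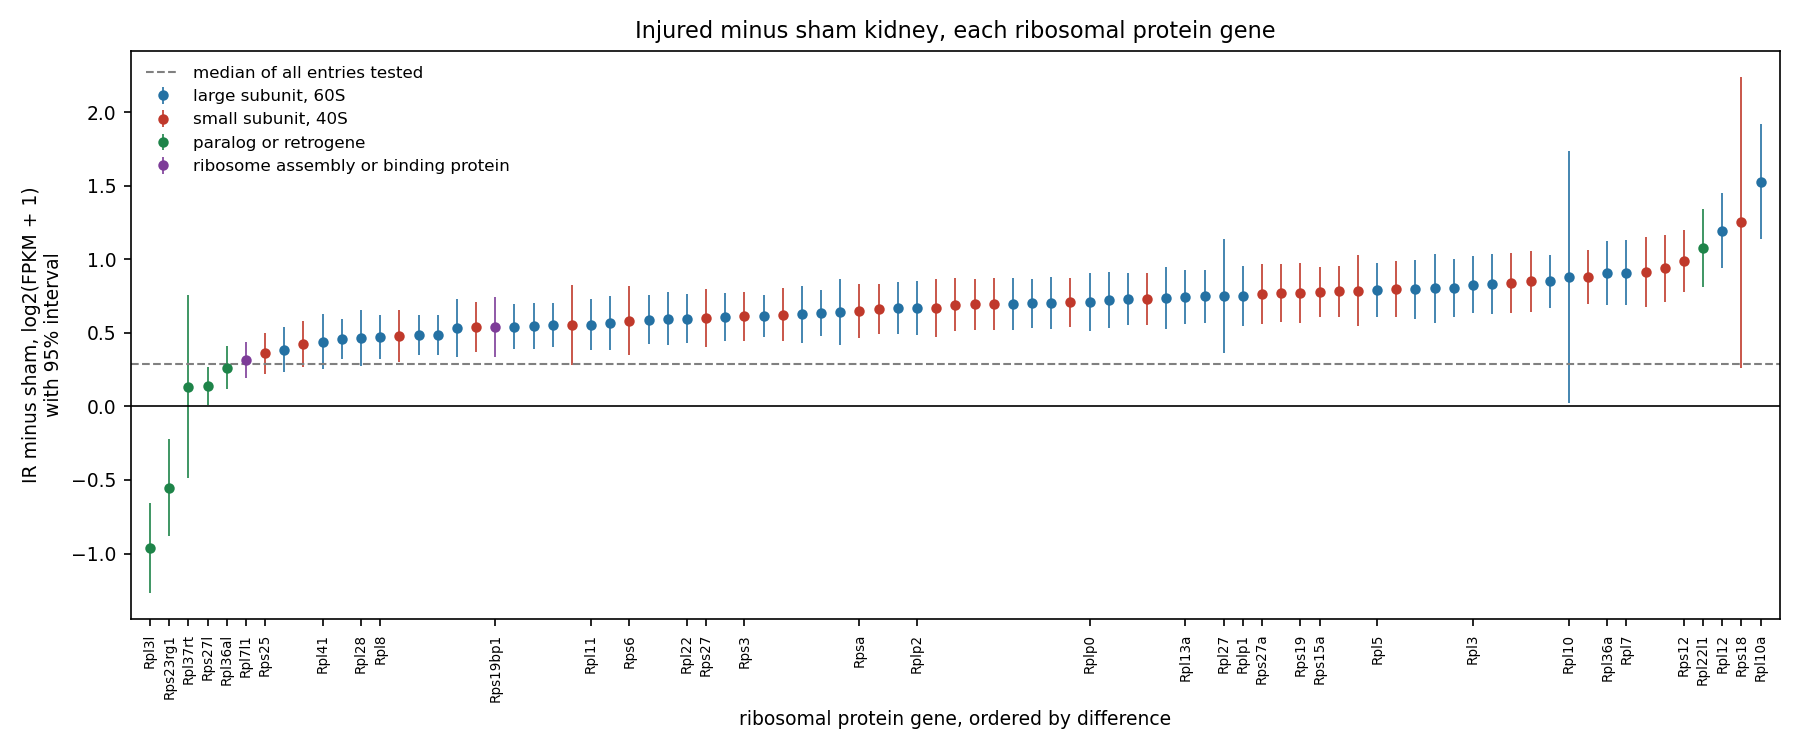
Difference between IR and sham for each of the 85 genes on the log2(FPKM + 1) scale (vertical axis, with 95% intervals from limma), ordered by size (horizontal axis, with some of the genes named) and coloured by class. The dashed line is the median of all entries tested, 0.29; the 5 genes with the smallest values are all paralogs or retrogene copies.

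The genes at the low end were paralogs, second copies that arose by duplication or by reverse transcription of an mRNA. Rpl3l (gene ID 66211), known as the form of Rpl3 in heart and skeletal muscle, was at 3.25, 2.93, 2.38, 5.15 and 3.22 FPKM in sham and at 1.73, 1.17, 1.17, 1.4 and 0.69 FPKM in IR, without overlap, and fell by 0.96 on the log2 scale (SE 0.15, limma adjusted p = 1.12e-05). The retrogene Rps23rg1 fell from 1.544 ± 0.417 to 0.744 ± 0.368 FPKM (log2 difference -0.55, adjusted p = 0.00427). Both levels are low, and the log2(FPKM + 1) scale understates such changes. Rpl37rt was at 1.018 ± 0.297 and 1.306 ± 0.804 FPKM and was not called (adjusted p = 0.691). Rps27l, a p53-responsive relative of Rps27, was at 340.4 ± 11.8 and 376 ± 26 FPKM. Its difference of 0.14 passed (limma adjusted p = 0.0432), but under median-ratio scaling it was -0.20 and passed in the other direction (adjusted p = 0.0172), and 7 single libraries ended the call when left out (sham replicates 2, 3, 4 and 5 and IR replicates 1, 2 and 3, with adjusted p up to 0.128). Rpl36al was at 322.1 ± 33.9 and 385.7 ± 19.7 FPKM (0.26 as deposited, -0.08 and not called under median-ratio scaling). Of the 6 paralogs and retrogenes, 3 rose, 2 fell and 1 was not called.

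The exception among the paralogs was Rpl22l1 (68028), a close relative of Rpl22 and an RNA-binding protein that can stand in for it. It was at 58.32, 68.15, 53.44, 62.55 and 64.84 FPKM in sham and at 152.96, 134.49, 135.88, 114.52 and 117.87 FPKM in IR. The log2 difference was 1.08 (SE 0.13, limma adjusted p = 5.08e-07). Rpl22 had the same sham mean, 61.46 ± 1.76 FPKM, and rose to 93.82 ± 9.43. To compare copies within a library, where scaling cancels apart from the added 1 FPKM, the log2 ratio of each paralog to its partner was taken for 5 pairs and 4 comparisons, and 20 exact permutation tests were adjusted together. Rpl22l1 over Rpl22 went from -0.004 ± 0.15 in sham to 0.48 ± 0.07 in IR, a difference of 0.48, with every IR library above every sham library. In the other 4 pairs the ratio was lower in IR: by -0.46 for Rps27l over Rps27, -0.64 for Rpl36al over Rpl36a, -1.79 for Rpl3l over Rpl3 and -0.60 for Rpl7l1 over Rpl7. All 5 two-sided exact permutation tests gave p = 0.00794, the smallest that 5 against 5 libraries allow, and adjusted p = 0.0265. Rps27, Rpl36a and Rpl36al share all their windows with other genes, Rpl3 shares 95.7%, Rpl22l1 84.2% and Rpl7 77.5%, so the counts behind all 5 ratios, that of Rpl22l1 to Rpl22 included, may be split between copies.

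**Figure D4:**
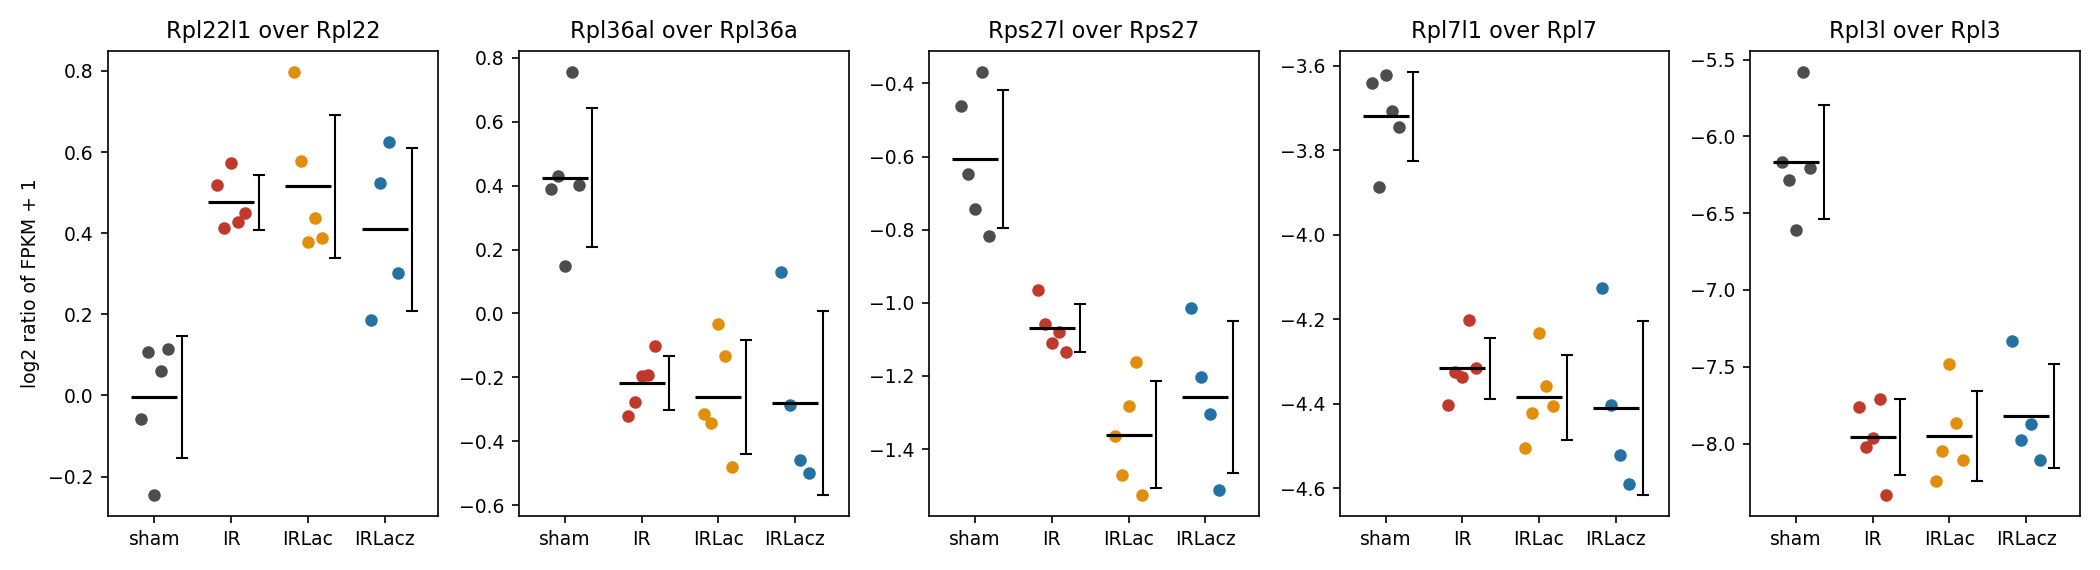
Log2 ratio of FPKM + 1 of a paralog or related gene to its partner (vertical axes, each with its own range) in the 4 groups. Points are libraries, lines are means and bars 1 SD; sham and IR do not overlap in any of the 5 panels, and the ratio is higher in IR only for Rpl22l1 over Rpl22.

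The start sites of genes from these sets show where they differ in sequence. Shown are the 20 bases before and the first 20 bases of the listed RefSeq transcript start (build GRCm38.p6, 5′ to 3′ on the coding strand). Capitals mark short strings of the kind found in a 5′ pyrimidine tract, searched on the coding strand only. The first string searched was CTTTC, the next was CTTTT, the third was CTCTT and the last was CCTTT. They can overlap one another. Rps27l and Rpl3l have 2 listed starts each, and the one with the lower coordinate is shown.
Rpl12, chr2:32961692-32961731, plus strand: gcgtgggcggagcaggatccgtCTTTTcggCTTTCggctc
Rps18, chr17:33955646-33955685, minus strand: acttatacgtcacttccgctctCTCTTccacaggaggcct
Rps12, chr10:23787190-23787229, minus strand: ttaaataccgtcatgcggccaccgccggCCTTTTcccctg
Rps6, chr4:86857348-86857387, minus strand: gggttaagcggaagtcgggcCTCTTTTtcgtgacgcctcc
Rpl22l1, chr3:28805488-28805527, plus strand: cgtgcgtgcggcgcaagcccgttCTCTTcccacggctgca
Rps27, chr3:90213629-90213668, minus strand: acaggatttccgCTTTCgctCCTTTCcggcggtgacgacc
Rps27l, chr9:66946066-66946105, plus strand: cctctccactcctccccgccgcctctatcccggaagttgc
Rpl36al, chr12:69184048-69184087, minus strand: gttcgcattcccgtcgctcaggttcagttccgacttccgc
Rpl3l, chr17:24727806-24727845, plus strand: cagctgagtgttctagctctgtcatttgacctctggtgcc
The first 6 genes rose by 0.58 to 1.25 and hold such a string in this window, and the last 3, which lay at the low end of the differences, do not. These genes and strings were chosen after their values were seen, so the division into 6 and 3 can follow from that choice. A link between the strings and the rise was not tested. RefSeq listed a start for 65 of the 85 genes. A string was present in 26 of 67 starts of subunit protein genes (38.8%), in 2 of 10 starts of the paralogs, retrogenes and binding proteins (20%), and in 12.6% of the 13455 starts of tested entries or 15.1% of all 32851. CCGGAAG, the core of ETS-type sites, was searched on both strands of the 300 bases from 250 before to 50 after the start. Its other strand, CTTCCGG, can share 3 letters with CTCTT. It was found in 37.3% of the subunit protein starts, against 16.4% of the starts of tested entries. A match is a string of letters, not a shown binding site.

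Genes that work with the ribosome were followed in lists. For comparison, 57.0% of all entries were higher in IR and 18.6% lower, with a median log2 difference of 0.29. The list values are as deposited, and values under median-ratio scaling are not given for them. Among the genes of ribosomal proteins with other names, Rack1, the scaffold protein on the small subunit (364.6 to 632.1 FPKM, log2 difference 0.79), and Fau, a ubiquitin-like fusion of the small subunit (219 to 257.2 FPKM, 0.23), rose. Of 53 genes of ribosome assembly in the nucleolus 50 rose and 3 were not called (median 0.64), among them Nop58 (8.338 to 27.64 FPKM, 1.62) and Nop56 (11.37 to 32.13 FPKM, 1.42), both parts of the snoRNP that methylates ribosomal RNA, and Npm1, nucleophosmin (83.86 to 226 FPKM, 1.43). Of 14 RNA polymerase I genes 13 rose (median 0.48). All 15 genes of other mRNAs with a 5′ pyrimidine tract rose (median 0.59), from 0.19 for the elongation factor Eef2 (775.8 to 884.9 FPKM) to 1.43 for Npm1. Most of these 15 are also counted in the lists of assembly genes, initiation factors or elongation factors, so the lists are not separate sets. Of 27 initiation factors 22 rose and 1, Eif4g2, fell (median 0.40), with Eif4a1, the helicase of cap-dependent initiation, at 1.05. Of 9 elongation and release factors 8 rose (median 0.44).

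Of 13 genes of mTORC1 and Myc control 9 rose and 2 fell (median 0.295), which is near the shares of all entries (57.0% higher and 18.6% lower, median 0.29). Myc, a transcription factor that drives ribosome production, rose from 4.326 to 27.4 FPKM (log2 difference 2.42), and Eif4ebp1, the translation repressor that mTORC1 inactivates, from 18.76 to 74.19 (1.92). Mtor, the kinase, fell from 51.89 to 24.55 FPKM (-1.06), and Eif4ebp2 from 61.97 to 51.02 (-0.28). Ribosomal protein genes such as Rpl13a and Rplp0 are used as references for quantitative PCR, and both rose here (0.74 and 0.71). Of 12 other reference genes 7 rose, 4 fell and 1 was not called. The share that rose was near the 57.0% of all entries, and the share that fell was above their 18.6%. The differences ran from Pgk1 at -0.49 (390.5 to 277.5 FPKM) to B2m at 2.10 (290.9 to 1277 FPKM), with Tbp at 0.27 (7.292 to 9.004) and Gapdh at -0.21 (1955 to 1685).

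IRLacz was set against IR to see whether gavage with L. casei Zhang altered the injured kidney. IR had no stated gavage, so the strain and the gavage cannot be told apart. Limma called 3 of 85 genes lower, against 7.92% of all entries, and 0 higher, against 5.39%. At an unadjusted p under 0.05, 12 were lower (14.1%, against 16.7% of all entries) and 0 higher (against 13.9%), both shares below those of the whole table. Single libraries moved this count widely. It was 3 without IRLacz replicate 1, 4 without IR replicate 2 or 3, 5 without IRLacz replicate 2 or IR replicate 1, 20 without IR replicate 5, 35 without IR replicate 4 and 39 (45.9%) without IRLacz replicate 4, while the share of all entries lay between 11.4% and 20.7%. Of the 85 differences 78 were negative, with a median of -0.135 against -0.0041 over all entries. Without IRLacz replicate 1, 60 were negative and the median was -0.045, against 0.0272 over all entries. In that library the summed macrophage markers were 603 FPKM against 984 to 1433 in the other 3, those of dividing cells 26.42 against 40.29 to 45.25, those of injured tubule 4978 against 10360 to 16460, and those of proximal tubule 27640 against 6859 to 19170. IR libraries held 6852 to 15170 FPKM of the last. The part of these cell markers in the ribosomal protein values was not tested.

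Rps18 (gene ID 20084), a small subunit protein at the head of the particle, was the gene that differed most. It was at 469.42, 426.47, 350.29, 222.8 and 314.09 FPKM in IR and at 22.26, 140.6, 127.29 and 104.48 FPKM in IRLacz, a log2 difference of -2.08 (limma adjusted p = 0.0151). The highest IRLacz library lay under the lowest IR library. No other gene of the 85 was without overlap, but the share of all entries without overlap was not computed for this comparison. The call was kept in all 18 alternatives that apply, with differences from -2.35 to -1.48 and adjusted p from 0.0108 to 0.0405. The sham libraries held 171.72, 182.79, 181.39, 89.21 and 124.05 FPKM, a range that overlaps IRLacz. In IRLac 4 libraries held 274.53 to 402.53 FPKM and replicate 5 held 65.95. The median over the 31 small subunit genes was -0.135, and -0.036 without IRLacz replicate 1. The start of Rps18 is among those printed above, and its shared windows make its level uncertain.

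Rpl10a was lower as well, at 32.28, 33.17, 44.73 and 44.89 FPKM in IRLacz. Of these, 2 lay near the 2 lowest IR libraries (44.35 and 44.51 FPKM) and 2 lay below all of IR, with a log2 difference of -0.65 (limma adjusted p = 0.0373). The call was lost in 7 of 18 alternatives, among them without IR replicate 1, 2 or 3 or IRLacz replicate 1 or 2 (adjusted p from 0.0839 to 0.108). Rpl7l1, a paralog of Rpl7 that acts in ribosome assembly, was at 31.59, 33.1, 34.34 and 36.01 FPKM against 35.05 to 41.49 in IR (-0.20, limma adjusted p = 0.0413). The groups overlapped narrowly, and the call was lost in 9 of 18 alternatives, 7 of which left out 1 library (IR replicate 1, 2, 3 or 4 or IRLacz replicate 1, 2 or 3, adjusted p from 0.0525 to 0.111). The count of 3 fell to 1 without IR replicate 1, 2 or 3 or IRLacz replicate 1 or 2, and rose to 5 without IR replicate 4 and to 7 without IRLacz replicate 4. Rpl10 again fell into sets, at 10.35, 25.07, 23.63 and 48.23 FPKM, and its difference of -0.98 did not pass (adjusted p = 0.133).

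**Figure D5:**
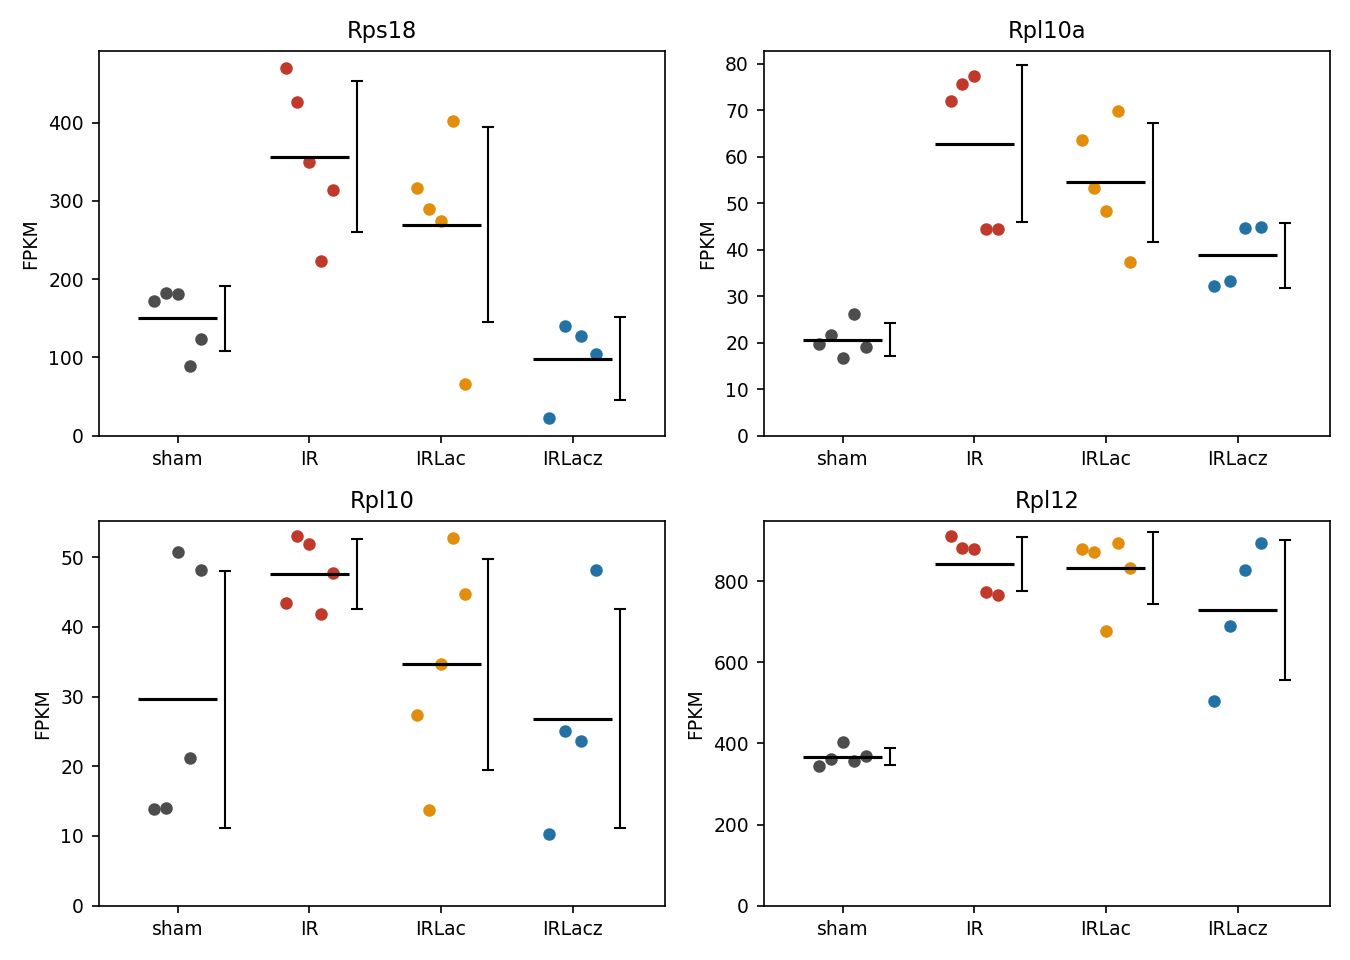
FPKM (vertical axes, from 0) of Rps18, Rpl10a, Rpl10 and Rpl12 in the 4 groups. Points are libraries, lines are means and bars 1 SD; all IRLacz points of Rps18 lie under 141 FPKM, and Rpl10 spreads widely in every group but IR.

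Among the 53 assembly genes limma called 26 lower after L. casei Zhang, against 7.92% of all entries, and none higher (median -0.25), including Fbl, the methyltransferase fibrillarin (75.53 to 55.85 FPKM, log2 difference -0.43), Nop58 (27.64 to 18.11, -0.59), Nop2 (22.44 to 15.24, -0.52) and Bop1 (26.09 to 19.35, -0.41). Without IRLacz replicate 1 the count was 14 (median -0.23), against 3.46% of all entries, and over the single libraries left out it ranged from 11 (without IRLacz replicate 2) to 26, with 12, 13 and 17 without IR replicate 3, 2 or 1. Myc was lower, at 15.16 against 27.4 FPKM (-0.84, limma adjusted p = 0.0323), a call lost without IRLacz replicate 1 (-0.63, adjusted p = 0.108) or 2 or IR replicate 1, 2 or 3 (0.0725 to 0.0834). Of 27 initiation factors 7 were lower, but only 1 without IRLacz replicate 1 or 2 or IR replicate 2 or 3, and 2 without IR replicate 1. Of 14 RNA polymerase I genes 4 were lower, but 0 without IRLacz replicate 1 or IR replicate 2 or 3, 1 without IRLacz replicate 2 or IR replicate 1, and 2 without IRLacz replicate 3. Of 9 elongation and release factors 1 was lower, and 0 to 2 with single libraries left out (0 without IRLacz replicate 2 or IR replicate 1, 2 or 3). None of the 15 other pyrimidine-tract genes and neither Fau nor Rack1 was called; without IR replicate 4 or IRLacz replicate 4, 1 of the 15 was lower. The difference between assembly genes and ribosomal protein genes was not itself tested. All 8 markers of dividing cells, 8 of 14 of macrophages and 5 of 8 of fibroblasts were also lower in IRLacz (6, 2 and 4 without IRLacz replicate 1, and of macrophages 1 without IR replicate 3 and 4 without IR replicate 2 or IRLacz replicate 2), and their part in these counts was not tested.

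In IRLac against IR limma called 0 of the 85 genes higher (0% of all entries) and 0 lower (0.00736%), with 1 higher (1 of 85, against 2.24% of all entries) and 0 lower (against 3.54%) at an unadjusted p under 0.05, so these counts do not exceed the background. The median difference was -0.009, and 38 genes were above 0 and 47 below. The gene with an unadjusted p under 0.05 was Rps27, at 853.06, 920.32, 925.67, 792.86 and 1094.45 FPKM in IRLac against 767.29, 858.86, 797.94, 745.19 and 777.65 in IR (log2 difference 0.21). Its paralog Rps27l was at 355.3 ± 24.5 against 376 ± 26 FPKM. The log2 ratio of Rps27l to Rps27 was therefore -1.36 ± 0.15 in IRLac and -1.07 ± 0.07 in IR, and every IRLac library lay below every IR library (two-sided exact permutation p = 0.00794, adjusted p = 0.0265 over the 20 tests). The 20 tests include those of IR against sham, which had the same exact p and share this adjusted value. Tests among the injured groups were not adjusted on their own. In limma neither Rps27 (adjusted p = 0.83) nor Rps27l (0.972) was called in IRLac against IR. No other pair passed in a comparison among the injured groups.

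In IRLacz against IRLac limma called 0 of 85 higher (0.00736% of all entries) and 0 lower (0.0147%). At an unadjusted p under 0.05, 1 was higher (against 6.94% of all entries) and 5 were lower (5.88%, against 9.03%), and the 5 ranged from 1 (without IRLacz replicate 1 or 2 or IRLac replicate 4) to 34 (without IRLacz replicate 4) with single libraries left out, with 14 without IRLac replicate 3, 9 without IRLacz replicate 3 and 2 without IRLac replicate 1 or 2. The median was -0.12, against -0.0075 over all entries, and 79 of 85 differences were negative. Without IRLacz replicate 1 the median was -0.03, against 0.0256 over all entries, and 62 were negative. Rps18 had the largest, -1.51, with IRLac replicate 5 inside the range of the IRLacz libraries and the other 4 above it. The IRLacz and IRLac comparisons with IR share the IR libraries and are set side by side only: the 77 subunit proteins had medians of -0.14 (-0.041 without IRLacz replicate 1) and -0.009.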

How the data were processed

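Per the labels' protocols, frozen kidneys were lysed in Trizol, RNA was run on a Bioanalyzer and libraries were made by a standard Illumina protocol. The authors deposited 1 table of FPKM values with 2 decimals, in which every column was mapped to a sample by its title. HISAT, StringTie (version 1.0.4) and the build mm9 appear in the submitters' processing notes, with no roles given. For the annotation, shared reads, strand and read depth, the methods were not given in the sources used here. FPKM totals were 545590 to 584798 per library. Low values moved in steps: of 182 values, 56% lay within 0.1 step of a whole number (20% if spread evenly), and steps put relative depth at 0.986 to 1.02 in the 17 libraries with an estimate. The entries used for this were picked after several other selections had been tried on the same values, and the share near whole steps varied widely between those selections, so the estimate of depth is rough and no result rests on it.

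Values were tested as log2(FPKM + 1), which understates the change of low genes, with limma 3.58.1 in R 4.3.3 (mean-variance trend, 19 libraries in 1 model, 15 residual degrees of freedom). The 13594 entries that reached 1 FPKM in 4 or more libraries were tested, with Benjamini-Hochberg adjustment over all of them and a threshold of 0.05. The steps were tested on simulated data. Paralog ratios were compared with two-sided exact permutation tests (scipy 1.17.1). Gene IDs were named from a RefSeq table of GRCm38.p6, and start sequences are RefSeq's on that build. The named genes were the 5 highest and 5 lowest differences between IR and sham, all genes called in another comparison, the 3 highest and 3 lowest levels, and a fixed set that includes Rps18 because of an earlier result. The members, lists and tests were chosen with earlier results of these data known, and other genes named in the text were chosen after their values were seen. Alternatives covered the pseudocount, filters, scaling, TPM, library weights, a replicate block, the groups in the model and single libraries left out. Some genes of the lists are counted but not reported by name here.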

Additional observations from a re-analysis of the deposited data

Results flagged for a closer look

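Of 136 groups of libraries (33 named genes and their summed share, in 4 groups each), 11 held a library far from the others by Dixon's gap criterion, and chance gives about 1 in 20. All 11 were of the same pair of libraries. The genes were measured in the same libraries and the summed share contains them, so the 11 are not independent. Their number can therefore not be judged against that rate. In sham, replicate 3 was the highest for Rpl11 (716.75 FPKM, others 673.02 to 685.03), Rpl13a (695.91, others 618.7 to 638.32), Rpl39 (306.55, others 267.28 to 278.31), Rplp1 (1205 FPKM, others at most 1092.3), Rplp2 (798.55, others at most 710.2) and the summed share of all 85 genes (6.6%, others at most 6.3%), and the lowest for Rpl5 (60.43 FPKM, others 71.21 to 74.3). In IRLac, replicate 3 was the lowest for Rpl12 (677.85 FPKM, others 832.65 to 895.21), Rpl3 (470.0, others 565.19 to 595.6), Rpl7 (703.88, others 807.39 to 847.52) and Rps4x (538.35, others 634.92 to 667.8). IRLac replicate 3 also stood apart in cell markers, with summed proximal tubule markers of 22950 FPKM against 5514 to 11180 in the other 4, macrophage markers of 887.2 against 1323 to 1927 and fibroblast markers of 544.7 against 719.7 to 1019; their part in these values was not tested. The count of genes higher in IR than in sham was 81 with and 81 without sham replicate 3.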

How the results depend on the processing

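The 81 genes higher in IR than in sham were 65 to 82 over all alternatives (79 to 81 with single libraries left out), and the 2 lower were 0 to 3. The lowest of these, 0, came with a mean of at least 5 FPKM, where Rpl3l, Rps23rg1 and Rpl37rt are no longer tested. With single libraries left out the 2 lower were 2 throughout. The 3 genes lower in IRLacz than in IR were 1 when only the 2 groups entered the model, and 1 to 7 with single libraries left out; the cause was not tested. Rpl36al (-0.079), Rpl7l1 (-0.022), Rps27l (-0.202) and Rpl37rt (-0.045) had the opposite sign in IR against sham with median-ratio scaling. Rpl37rt also had it with quantile normalization (-0.402) and without IR replicate 1 (-0.019, in a range of -0.019 to 0.281 over single libraries left out). With median-ratio scaling Rpl28, Rpl41 and Rps19bp1 did not pass in that comparison (adjusted p = 0.217, 0.321 and 0.0588). Both IRLac comparisons had 0 genes called in every alternative. Of 678 further values for 36 named results, 636 kept direction and side of the threshold, 30 lost the call, 6 gained it and 6 changed sign. All 66 alternatives for the 6 paralog ratios that passed, chosen after seeing the data, kept their sign with an exact permutation p of at most 0.0159 before adjustment; with 4 against 5 libraries that is the smallest possible. The labels do not say whether replicate numbers pair the libraries. Same-numbered libraries had correlations of their deviations from the group means between -0.394 and 0.23. These were not compared with differently numbered libraries, so they cannot exclude pairing or a shared batch by number. With a replicate block, IR against sham gave 81 genes higher and 2 lower, IRLacz against IR 0 and 3, and both other comparisons 0, and Rps27l lost its call (adjusted p = 0.0691).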
